A study of Homo sapiens with 12 samples.

Results

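The p53 target genes described here are 31 human genes that p53, a transcription factor, is known to switch on. They were taken by name from the deposited table of all 58735 genes, and their values were followed through all 12 libraries of the study. The study measured RNA by sequencing in a pair of breast epithelial cell lines given DATS (diallyl trisulfide, a sulfur compound found in garlic) or its solvent. MCF-10A is an immortalised, non-tumorigenic line, while SK-BR-3, derived from a breast tumour, has extra copies of ERBB2. The 4 groups were MCF-10A with DMSO (0.07%), MCF-10A with DATS (20 µM), SK-BR-3 with DMSO (0.07%) and SK-BR-3 with DATS (20 µM), all harvested after 16 h with trypsin, with 3 independently prepared libraries in each. Libraries of a line with the same number are called preparation 1, 2 or 3 here, although the labels do not say that DMSO and DATS libraries of a number were prepared together. A single cell line stands for the non-tumorigenic state and a single one for the tumour, so the line and the state cannot be told apart.

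In unstressed cells p53 is kept low by MDM2, a ubiquitin ligase that is itself a p53 target, so that the pair forms a feedback loop. DNA damage and other stress free p53 from MDM2, and p53 then binds sites in and near genes for growth arrest, cell death, DNA repair and metabolism. Some of these genes can also be raised without p53.

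A match to the p53 consensus was found in the stretch around a start of transcription of 4 of the genes. The consensus half-site of p53 spans 10 bases and reads alike on both strands, and a full match was taken as a pair of half-sites with at most 1 base between them, the invariant C and G of each kept, and at most 2 mismatches elsewhere. RefSeq (GRCh38.p14) gave a window of 300 bases, 250 before the start and 50 from it on, for 24 of the 31 genes. No window was matched for FBXO22, GADD45A, PHLDA3, TNFRSF10B, TNFRSF10C, RRM2B and TP53INP1. A full match was found in 4 of these 24 genes (16.7%) and in 184 of all 27305 genes with a window (0.674%). An exact half-site was found in 7 of the 24 (29.2%) and in 2202 of all (8.06%). The 4 matches are printed as examples of such a sequence, which most of the 24 genes lacked in their windows. The match is in capitals and 4 flanking bases on each side are in lower case, all on the plus strand.
FAS: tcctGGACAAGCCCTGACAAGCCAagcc
DDB2: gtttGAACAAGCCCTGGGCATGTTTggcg
MDM2: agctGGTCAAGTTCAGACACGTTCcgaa
AEN: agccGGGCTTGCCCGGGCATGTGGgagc
The FAS stretch is chr10:88991305-88991332, and its match runs from -122 to -103 of an internal start, counted from the start base as 0, with 2 mismatches. The DDB2 stretch is chr11:47214975-47215003, where the match runs from 5 to 25 of an internal start with 0 mismatches and 1 base between the half-sites. Windows at other starts held sites with at best 8 mismatches for FAS and 6 for DDB2. The MDM2 stretch is chr12:68808919-68808946, outside GENCODE 29 exons but inside the gene, and its match runs from -94 to -75 of an internal start with 2 mismatches. The AEN stretch is chr15:88621302-88621329 and its match runs from -34 to -15 with 2 mismatches. The FAS, DDB2 and AEN stretches lie within exons of that annotation. A match describes letters in a window and shows no binding. In the results below MDM2 and FAS rose with DATS in MCF-10A, and AEN and DDB2 were not called.

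Libraries held 15295046 to 18407213 reads in genes, and 21211 to 22380 genes had at least 1 read. Values are FPKM, fragments scaled to exon length and depth, and changes are differences of log2(FPKM + 1) with a standard error (SE), a scale on which genes with low FPKM appear to change less than they do. Of 58735 genes, 13194 reached 1 FPKM in at least 3 libraries and were tested with limma, and a gene was called at an adjusted p under 0.05. Of the 31 genes, 29 passed this filter, while TIGAR and TNFRSF10C did not. All 6 markers of MCF-10A (KRT5, KRT14, KRT17, TP63, ITGB4 and VIM) were called lower in SK-BR-3 and all 6 of SK-BR-3 (ERBB2, GRB7, KRT8, KRT18, KRT19 and SPDEF) higher, as the labels have it. The leukocyte marker PTPRC stayed at or under 0.0202 FPKM and the endothelial PECAM1 at or under 0.208 FPKM, while COL1A1, a fibroblast marker, read 4.91 to 8.15 FPKM in MCF-10A and 1.55 to 2.22 FPKM in SK-BR-3. Preparation 3 of MCF-10A stood apart: its DMSO library held the highest DMSO value for 16 of the 29 tested genes, and its DATS library held the lowest DATS value for 18. The shares over all tested genes were not worked out for these counts. Reads of ribosomal RNA were nearly all mitochondrial (MT-RNR1 and MT-RNR2). Their share in MCF-10A was 0.249%, 0.244% and 0.258% with DMSO and 0.365%, 0.386% and 0.261% with DATS, in the order of the preparations. In SK-BR-3 it was 0.344%, 0.346% and 0.410% with DMSO and 0.427%, 0.557% and 0.454% with DATS.

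In MCF-10A, 5 of the 29 tested genes rose with DATS and 0 fell, against 4.17% of all tested genes that were called higher and 2.11% called lower by limma. At an unadjusted p under 0.05 these counts were 14 and 0, against 14.5% and 9.1% of all tested genes. On reads recovered from the FPKM values edgeR called 4 higher and 0 lower, against 3.87% and 2.09%, and DESeq2 called 10 higher and 0 lower, against 6.87% and 4.17%. The 5 were MDM2, ZMAT3, FAS, EDA2R and TP53INP1, with mean FPKM 1.40 to 1.71 times that with DMSO. The DATS libraries lay wholly above the DMSO libraries for 11 of the 29 genes and wholly below for 0, against 17.3% and 12.2% of all tested genes. The fitted change was positive for 26 genes and negative for 3, with a median of 0.30 on the log2 scale against 0.02 for all tested genes. In RNA from whole cultures, fewer cells of a kind and less RNA per cell cannot be told apart. With the replicate number as a block, which compares same-numbered DATS and DMSO libraries, 10 of the 29 genes were called higher and 0 lower, against 10.7% and 5.21% of all tested genes, with GADD45A, TNFRSF10B, PHLDA3, RPS27L and RRM2B added.

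Of the genes for feedback and control of p53, 1 of 4 rose. MDM2 (chromosome 12, 68808176 to 68850686, plus strand) read 10.0, 10.5 and 10.0 FPKM with DMSO and 17.8, 17.3 and 13.5 FPKM with DATS. The groups did not overlap, and the DATS library of preparation 3 was the lowest of its group. The means were 10.2 ± 0.267 and 16.2 ± 2.36 FPKM (SD, n = 3), a 1.59-fold rise (log2 change 0.61 ± 0.10 SE, limma adjusted p = 0.0109). AC025423.4 and CPM on the other strand overlap its exons, and the largest single overlap covers 5.9% of their length. PPM1D, the WIP1 phosphatase that dampens the p53 response, CCNG1, the cyclin G1 that works with a phosphatase acting on MDM2, and FBXO22, a ubiquitin ligase subunit, were not called, with log2 changes of 0.05, 0.07 and 0.18. FBXO22 read 3.99 to 4.35 FPKM with DMSO and 4.70 to 4.86 FPKM with DATS, so its groups did not overlap.

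Among the genes for arrest of growth and the cell cycle, 1 of 5 rose. ZMAT3, an RNA-binding protein that p53 induces, read 5.93, 5.76 and 6.38 FPKM with DMSO and 8.55, 8.35 and 8.66 FPKM with DATS. It is located on chromosome 3 (179017223 to 179072279, minus strand). The groups were well apart and all 3 preparations moved by a like amount, 0.46, 0.47 and 0.39 on the log2 scale. The change was 0.44 ± 0.08 (SE, adjusted p = 0.0149). GADD45A, a stress protein that slows the cell cycle, read 38.3, 38.1 and 76.1 FPKM with DMSO and 73.1, 69.6 and 82.2 FPKM with DATS. Its DMSO library of preparation 3 lay among the DATS libraries, and the change of 0.63 ± 0.23 was not called (adjusted p = 0.124), although it was called with the replicate block (adjusted p = 0.0382). PLK3, a stress-responsive polo-like kinase, had the same shape, at 6.32, 7.70 and 12 FPKM against 14.1, 15.9 and 11.9 FPKM (0.66 ± 0.19, adjusted p = 0.0618). PLK2, a related kinase, and BTG2, an antiproliferative regulator of mRNA decay, had changes of 0.18 and -0.19 with overlapping groups.

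Of the death receptor genes, 2 of the 3 tested rose. FAS (chromosome 10, 88990582 to 89015785, plus strand), the receptor of FAS ligand, read 10.1, 9.55 and 10.9 FPKM with DMSO and 13.9, 14.1 and 14.8 FPKM with DATS. The groups did not overlap, and the DATS values lay close to one another. The mean rose 1.40-fold (0.45 ± 0.07, adjusted p = 0.00877), and 8.9% of its exon length overlaps ACTA2 on the other strand. The call was lost with a pseudocount of 0.1 FPKM (adjusted p = 0.122). EDA2R, the ectodysplasin A2 receptor (chromosome X, 66595637 to 66639298, minus strand), read 2.52, 2.32 and 1.94 FPKM with DMSO and 4.74, 3.76 and 3.12 FPKM with DATS. The groups did not overlap, and the gene rested on 447 and 699 reads summed over the 3 libraries of each group. Its 1.71-fold rise gave a log2 change of 0.57 ± 0.12 (adjusted p = 0.0216). That call was lost with edgeR (adjusted p = 0.0706) and with a pseudocount of 0.1 FPKM (adjusted p = 0.0675). TNFRSF10B, a receptor of the death ligand TRAIL, read 40.0, 41.8 and 44.2 FPKM with DMSO and 61.4, 60.7 and 53.2 FPKM with DATS. These groups did not overlap either, but the change of 0.46 ± 0.15 was not called (adjusted p = 0.086, and 0.023 with the replicate block). TNFRSF10C, a decoy receptor of TRAIL, stayed at 0.244 to 0.449 FPKM with DMSO and 0.373 to 0.769 FPKM with DATS and was not tested.

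Of the 8 genes for mitochondrial and other cell death limma called 0 in MCF-10A, and all 8 had a positive change, with a median of 0.33. BBC3, which encodes the BH3-only protein PUMA (chromosome 19, 47220822 to 47232766, minus strand), read 1.32, 1.59 and 1.5 FPKM with DMSO and 3.62, 3.05 and 2 FPKM with DATS. The groups did not overlap, the DATS values spread widely, and preparation 3 gave the lowest. The mean was 1.97 times as high with DATS, the change was 0.63 ± 0.25, and it was not called (adjusted p = 0.147). BAX, which opens pores in the outer mitochondrial membrane (chromosome 19, 48954815 to 48961798, plus strand), read 25.0, 24.4 and 29.6 FPKM with DMSO and 36.4, 35.8 and 31.1 FPKM with DATS. Its groups lay apart by a small margin between the libraries of preparation 3, and the change was 0.38 ± 0.12 (adjusted p = 0.0835). RPS27L, a ribosomal protein paralogue whose reads could be shared with RPS27, changed by 0.35 ± 0.12 (adjusted p = 0.108, and 0.0366 with the replicate block). PHLDA3, an inhibitor of AKT, changed by 0.36 ± 0.16 (adjusted p = 0.205, and 0.0387 with the replicate block). Of the others, PMAIP1 (the BH3-only protein NOXA) had a change of 0.30, TRIAP1 (a p53-induced inhibitor of apoptosis) 0.27, PERP (a membrane protein of desmosomes) 0.23 and AEN (an apoptosis-linked exonuclease) 0.01.

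None of the 4 genes for DNA repair and nucleotide supply was called in MCF-10A by this fit. RRM2B, the p53-inducible subunit of ribonucleotide reductase, read 13.0, 12.3 and 12.4 FPKM with DMSO and 19.5, 18.1 and 16.9 FPKM with DATS. The groups were clearly separate, yet the change of 0.50 ± 0.16 missed the threshold (adjusted p = 0.0802, and 0.014 with the replicate block). It also missed it with the MCF-10A libraries fitted alone under the shared filter (adjusted p = 0.0514), a fit that called 0 of all tested genes. RRM2B was called with that line alone and a filter on its own libraries (adjusted p = 0.03) and by DESeq2 (adjusted p = 0.0483). It was not called by edgeR (adjusted p = 0.0878), with quantile normalization (adjusted p = 0.0964) or with a pseudocount of 0.1 FPKM (adjusted p = 0.161). The nucleotide excision repair genes XPC and DDB2, which recognise damaged DNA, changed by -0.11 and 0.00, and POLH, a polymerase that copies past ultraviolet lesions, by 0.14, all with overlapping groups. AC090004.1, AC093495.1 and LSM3 on the other strand overlap the exons of XPC, and the largest single overlap covers 23.8% of the exon length.

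Of the genes for redox, metabolism and mitochondrial quality, 1 of 5 tested rose. TP53INP1, a nuclear protein linked to autophagy and antioxidant defence (chromosome 8, 94925972 to 94949411, minus strand), read 4.02, 3.96 and 3.97 FPKM with DMSO and 7.68, 6.69 and 5.63 FPKM with DATS. The DMSO libraries were nearly equal, and all 3 DATS libraries lay above them. The mean was 1.67 times as high (0.61 ± 0.11, adjusted p = 0.0148). TP53I3, a quinone oxidoreductase also called PIG3 (chromosome 2, 24077433 to 24085861, minus strand), read 17.9, 19.8 and 44.1 FPKM with DMSO and 30.1, 31 and 48.2 FPKM with DATS. Both libraries of preparation 3 were far above the others, so the groups overlapped and the change of 0.49 ± 0.28 was not called (adjusted p = 0.331). FDXR, the ferredoxin reductase of mitochondria, SESN1, a sestrin that restrains mTORC1, and SPATA18, a factor in mitochondrial quality control, changed by 0.03, 0.19 and 0.13. TIGAR, a regulator of glycolysis, read 0.452 to 0.794 FPKM with DMSO and 0.737 to 0.954 FPKM with DATS and was not tested.

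**Figure D1:**
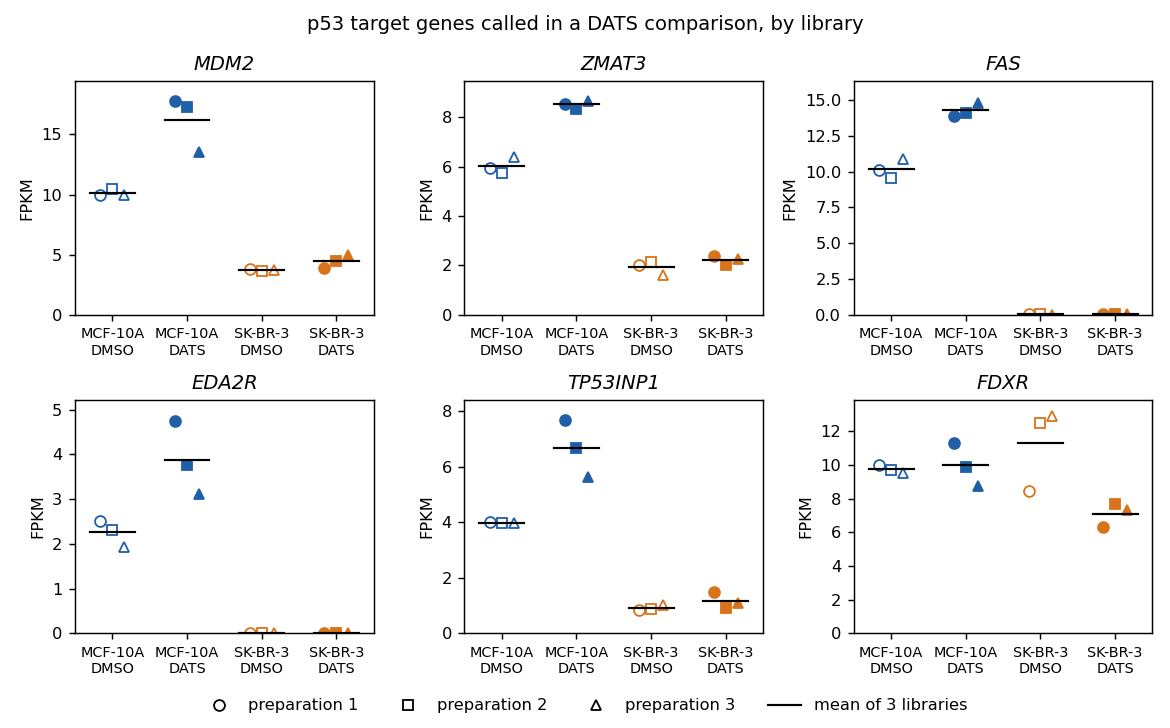
FPKM of the 6 p53 target genes called in a DATS comparison, for each of the 12 libraries (circles, squares and triangles for preparations 1, 2 and 3, open for DMSO and filled for DATS, with a line at the mean of 3 libraries). In MCF-10A the DATS points of MDM2, ZMAT3, FAS, EDA2R and TP53INP1 lie above every DMSO point, while FDXR is lower with DATS in SK-BR-3, at 6.31 to 7.70 FPKM against 8.44 to 12.9 FPKM.

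The 5 calls in MCF-10A, at limma adjusted p-values of 0.00877 to 0.0216, depended on which libraries were kept. Without a single MCF-10A library the number of the 29 genes called higher ran from 0 (without the DMSO library of preparation 1) to 11 (without the DMSO library of preparation 3). It was 1 without the DMSO library or the DATS library of preparation 2, and 2 without the DATS library of preparation 1. Calls in either direction over all tested genes also moved, from 829 to 86, 109 and 1945 without the DMSO library of preparation 1, 2 or 3. Without the DATS library of preparation 1, 2 or 3 they numbered 233, 89 and 448. When the 6 MCF-10A libraries were fitted on their own, limma called 0 of the 29. That fit called 0 of all tested genes, so it says nothing particular about the 29. When the filter on low values was also set on those libraries alone, 11668 genes were tested and 6 of the 29 were called higher and 0 lower, against 3.32% and 1.95% of those tested. These 6 held TNFRSF10B and RRM2B but not EDA2R (adjusted p = 0.0568). The adjusted p-values with the shared filter were 0.0599 for MDM2, 0.0514 for ZMAT3, 0.0515 for FAS, 0.0953 for EDA2R and 0.0595 for TP53INP1.

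The median change of the set varied between preparations. In MCF-10A the median change of the 29 genes was 0.39 in preparation 1, 0.43 in preparation 2 and 0.13 in preparation 3, against 0.02, 0.02 and 0.03 for all tested genes. The change was positive for 27, 27 and 21 of the 29 genes. Preparation 3 was also the one in which the share of ribosomal RNA, nearly all mitochondrial, hardly moved with DATS, at 0.258% and 0.261%. The part of this in the smaller change was not tested. MDM2 changed by 0.77, 0.67 and 0.39 in preparations 1, 2 and 3, BBC3 by 0.99, 0.64 and 0.27, and PLK3 by 1.04, 0.96 and -0.01. FAS differed little, at 0.43, 0.52 and 0.41. With both libraries of preparation 3 left out, 9 of the 29 genes were called higher and 0 lower, but calls over all tested genes were also more frequent, at 7.1% and 2.98%.

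**Figure D2:**
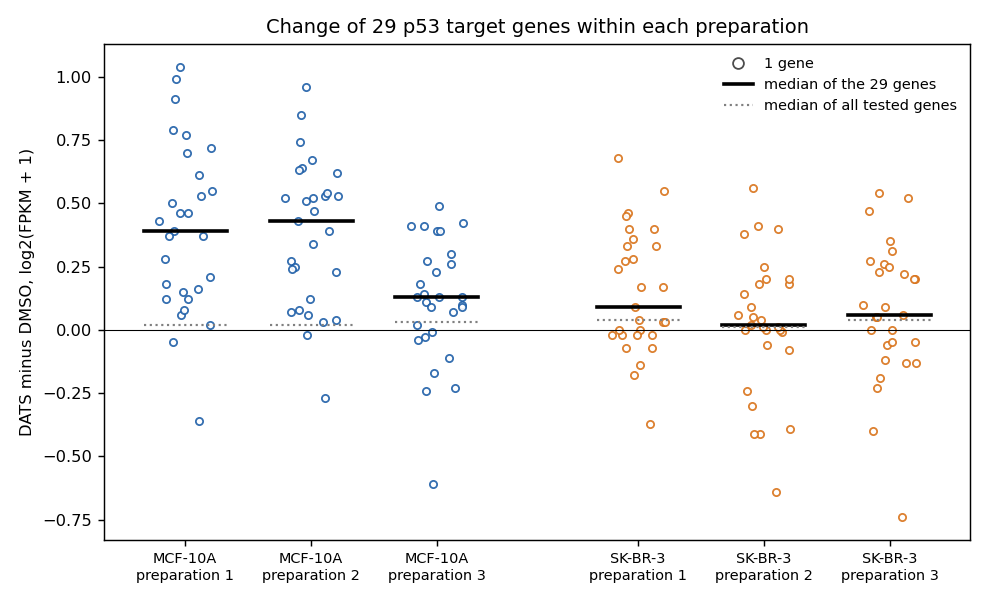
Change with DATS within each preparation (log2(FPKM + 1), DATS library minus the same-numbered DMSO library) for the 29 tested p53 target genes, with 1 open point per gene, a solid line at their median and a dotted line at the median of all 13194 tested genes. In MCF-10A the medians are 0.39, 0.43 and 0.13, and for SK-BR-3 they are 0.09, 0.02 and 0.06.

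In SK-BR-3, 0 of the 29 genes rose with DATS and 1, FDXR, fell, while 11.3% of all tested genes were called higher and 6.87% lower. FAS, EDA2R and SPATA18 passed the filter through MCF-10A alone and had few or 0 reads in SK-BR-3, so they could hardly be called there. They still count in the 29 and in the median below. All tested genes hold such genes too, since 10078 of the 13194 reached 1 FPKM in at least 3 libraries of each line. The median change of the 29 was 0.09 against 0.03 for all tested genes, with 20 positive and 7 negative. The DATS libraries lay wholly above the DMSO libraries for 4 genes (FBXO22, MDM2, PMAIP1 and PERP) and wholly below for 1, against 21.1% and 12.4% of all tested genes. At an unadjusted p under 0.05, 3 genes were higher and 2 lower, against 19.9% and 12.8% of all tested genes. Of the count tests on recovered reads, DESeq2 called 3 genes higher (PMAIP1, PERP and PHLDA3) and 1 lower, against 13.1% and 8.91%, and edgeR called 0 higher and 1 lower, against 8.68% and 8.42%. With the replicate block 3 genes were called higher (CCNG1, PERP and PHLDA3) and 1 lower, against 17.1% and 10.3% of all tested genes.

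FDXR (chromosome 17, 74862497 to 74873031, minus strand), which passes electrons from NADPH to mitochondrial ferredoxin, read 8.44, 12.5 and 12.9 FPKM with DMSO and 6.31, 7.70 and 7.34 FPKM with DATS. The lowest DMSO library, that of preparation 1, still lay above all DATS libraries. The mean went from 11.3 ± 2.47 to 7.12 ± 0.723 FPKM (SD, n = 3), which is 0.631 times the DMSO level, and the log2 change was -0.58 ± 0.14 (adjusted p = 0.0166). Within preparations FDXR fell by 0.37, by 0.64 and by 0.74 on the log2 scale. The call was lost without the DMSO library of preparation 2 or 3 or the DATS library of preparation 1, where the adjusted p reached 0.0674, and in limma on the SK-BR-3 libraries alone (adjusted p = 0.096).

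The 5 genes that rose in MCF-10A were not called in SK-BR-3. MDM2 read 3.78, 3.63 and 3.70 FPKM with DMSO and 3.91, 4.50 and 4.97 FPKM with DATS there. The groups did not overlap but the change was small, 0.21 ± 0.10 (adjusted p = 0.183). ZMAT3 read 2.03, 2.15 and 1.62 FPKM with DMSO and 2.40, 2.02 and 2.26 FPKM with DATS, which overlap (0.14 ± 0.08, adjusted p = 0.275). TP53INP1 read 0.833, 0.892 and 1.01 FPKM with DMSO and 1.5, 0.916 and 1.09 FPKM with DATS, where only the DATS library of preparation 1 stood out (0.17 ± 0.11, adjusted p = 0.33). FAS was almost silent, with 3, 3 and 1 reads with DMSO and 2, 6 and 6 reads with DATS, or 0.0145 to 0.047 FPKM and 0.0296 to 0.0873 FPKM. EDA2R had 0 reads in all 6 SK-BR-3 libraries.

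Of the 8 cell death genes limma called 0 in SK-BR-3, where 6 had a positive and 2 a negative change. PERP read 37.9, 40.9 and 41.0 FPKM with DMSO and 61.5, 53.7 and 57.1 FPKM with DATS. The groups were far apart relative to their spread, while the change of 0.51 ± 0.17 was not called (adjusted p = 0.0606, 0.00367 with the replicate block and 0.0274 in limma on the SK-BR-3 libraries alone). PMAIP1 read 1.31, 0.655 and 0.8 FPKM with DMSO and 1.91, 1.44 and 1.62 FPKM with DATS (0.48 ± 0.17, adjusted p = 0.0708). PHLDA3 changed by 0.35 ± 0.16 (adjusted p = 0.158, and 0.0277 with the replicate block) from a mean of 0.738 FPKM. BBC3 read 12.5, 10.4 and 9.39 FPKM with DMSO and 16.9, 7.55 and 8.08 FPKM with DATS. The DATS library of preparation 1 lay above and the other two below all DMSO libraries, and the change was -0.07 ± 0.25 (adjusted p = 0.897). BAX read 17.7, 18.4 and 18.6 FPKM with DMSO and 23.7, 18.3 and 16.8 FPKM with DATS, with overlapping groups (0.09 ± 0.12, adjusted p = 0.671).

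Of the remaining genes in SK-BR-3, TP53I3 read 2.85, 3.75 and 4.30 FPKM with DMSO and 4.65, 4.47 and 4.13 FPKM with DATS. The groups overlapped and the change of 0.24 ± 0.28 was not called (adjusted p = 0.621). CCNG1 changed by 0.22 ± 0.16 (adjusted p = 0.398, and 0.0238 with the replicate block). Its level differed between preparations in both groups, at 8.43, 11.7 and 13.4 FPKM with DMSO and 10.1, 13.0 and 16.3 FPKM with DATS. Changes were -0.20 for DDB2, -0.16 for RRM2B, -0.22 for TRIAP1 and -0.24 for BTG2, none of them called. SPATA18 had 0 reads in all 6 libraries. The DATS library of preparation 1 held the highest DATS value for 19 of the 29 genes. That count includes EDA2R and SPATA18, which tied at 0 in every library, and the share over all tested genes was not worked out. The change was positive for 18, 17 and 17 of the 29 genes in preparations 1, 2 and 3.

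**Figure D3:**
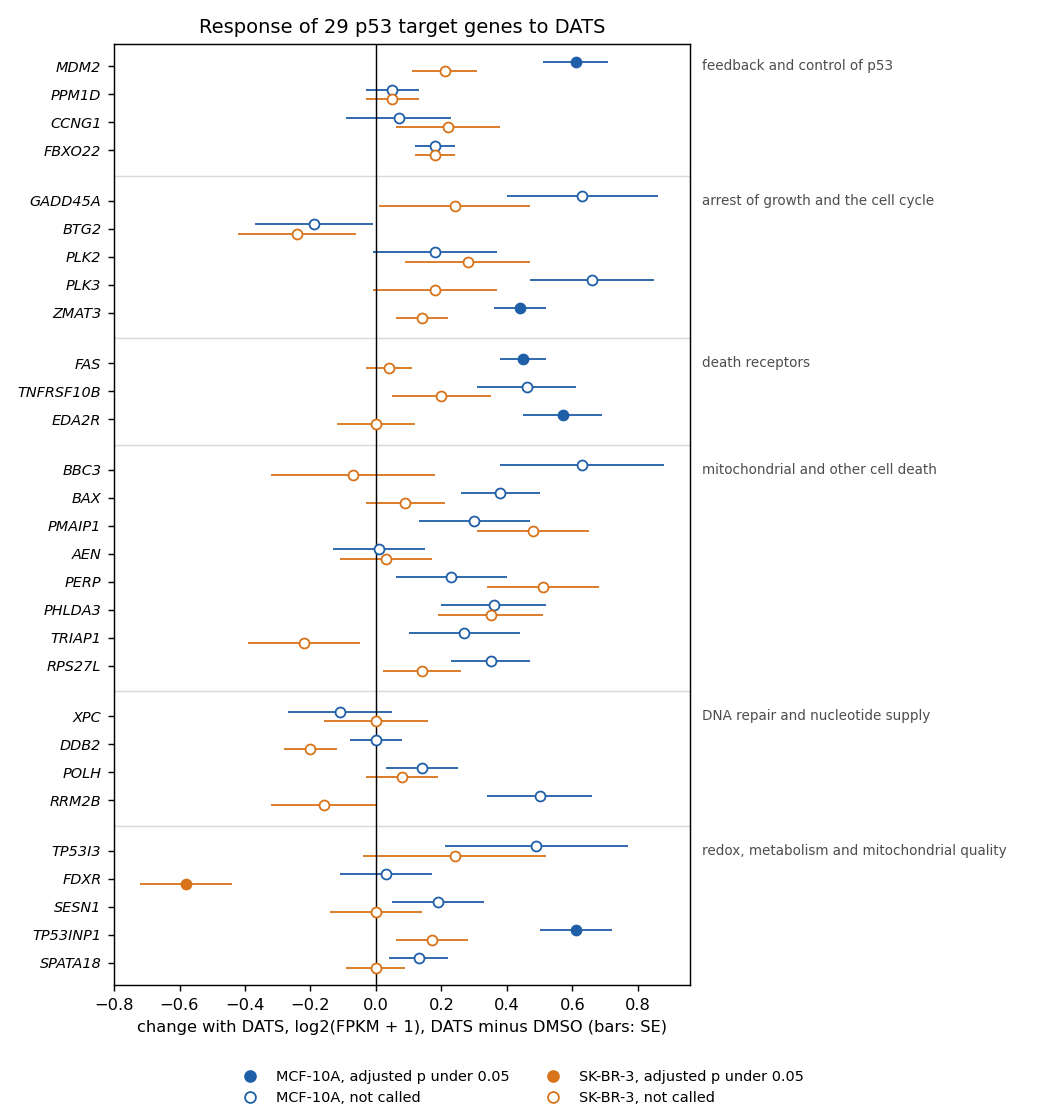
Change with DATS (log2(FPKM + 1), DATS minus DMSO, with bars of 1 SE from limma) of the 29 tested p53 target genes, by role, in MCF-10A (blue) and SK-BR-3 (orange), with filled points for genes called at an adjusted p under 0.05. The 5 filled MCF-10A points lie between 0.44 and 0.61, and the only filled SK-BR-3 point is FDXR at -0.58.

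The difference between the responses was tested for each gene as SK-BR-3 minus MCF-10A, and this comparison shares all its libraries with the others. It was called for 1 of the 29 genes, which was lower, against 1.81% of all tested genes called lower and 2.48% called higher. The difference was negative for 22 genes and positive for 7, with a median of -0.22 against 0.00 for all tested genes. FAS, EDA2R and SPATA18 passed the filter through MCF-10A alone and had few or 0 reads in SK-BR-3, so that their difference on this scale mostly mirrors the MCF-10A change. Over the other 26 genes, which reached 1 FPKM in at least 3 libraries of each line, it was negative for 19 and positive for 7, with a median of -0.21 against 0.02 for all genes that did so. The called gene was FAS, at -0.41 ± 0.10 (adjusted p = 0.047). FAS rested on 7 reads with DMSO and 14 with DATS over the 3 libraries of each SK-BR-3 group, and the value depends on the pseudocount. On recovered reads the difference of FAS had the other sign, 0.39 with edgeR (adjusted p = 0.777) and 0.46 with DESeq2 (adjusted p = 0.769), and with a pseudocount of 0.1 FPKM its adjusted p was 0.72. The call was also lost without any 1 of 11 of the 12 libraries.

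For the other genes that rose in MCF-10A the difference was not called. It was -0.40 ± 0.15 for MDM2 (adjusted p = 0.145), -0.30 ± 0.12 for ZMAT3 (adjusted p = 0.175) and -0.44 ± 0.16 for TP53INP1 (adjusted p = 0.151). For EDA2R, with 0 reads in SK-BR-3, the difference of -0.57 is the MCF-10A change with its sign turned and is no test of a difference in response. With the block 5 genes were called lower in the difference and 0 higher, against 4.53% and 5.29% of all tested genes. They were FAS, EDA2R, RRM2B (-0.66, adjusted p = 0.0215), FDXR (-0.61, adjusted p = 0.0284) and TRIAP1 (-0.49, adjusted p = 0.0413). The calls of FAS and EDA2R rest on their MCF-10A libraries, as above. Without the block the last 3 had adjusted p-values of 0.115, 0.11 and 0.278. Between the lines the changes of the 29 genes had a Pearson r of 0.34, against 0.30 over all 13194 tested genes, which describes genes of the same 12 libraries that are not independent.

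With DMSO alone, 26 of the 29 genes were lower in SK-BR-3 than in MCF-10A and 1 was higher, against 35.5% and 36.6% of all tested genes. The median difference of the 29 was -1.57 on the log2 scale against 0.01 for all tested genes. The SK-BR-3 libraries lay wholly below the MCF-10A libraries for 24 genes and wholly above for 1, against 36.6% and 37.3% of all tested genes. FAS, EDA2R and SPATA18 passed the filter through MCF-10A alone, so lower levels in SK-BR-3 were built into how they were chosen for testing. They count in the 26, the 24 and the median. This comparison uses the same DMSO libraries as the DATS comparisons. The calls covered all 6 roles, and AEN and FDXR were the genes not called, at -0.05 ± 0.14 (adjusted p = 0.774) and 0.17 ± 0.14 (adjusted p = 0.29).

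PHLDA3 (chromosome 1, 201464383 to 201469237, minus strand) had the largest difference on the log2(FPKM + 1) scale, from 51.8, 49.5 and 73.0 FPKM in MCF-10A to 1.04, 0.564 and 0.609 FPKM in SK-BR-3. It was the second most abundant of the 31 genes in MCF-10A and ranked 26 in SK-BR-3. The mean was 78.7-fold higher in MCF-10A (-5.08 ± 0.16, adjusted p = 8.82e-11), and 19.1% of its exon length overlaps a gene on the same strand. FAS read 9.55 to 10.9 FPKM in MCF-10A and 0.0145 to 0.047 FPKM in SK-BR-3, or 2386 against 7 reads, a 292-fold higher mean in MCF-10A (-3.43 ± 0.07, adjusted p = 2.78e-12). EDA2R and SPATA18 had 447 and 945 reads in the MCF-10A DMSO libraries and 0 in those of SK-BR-3. Taking 3 reads over the SK-BR-3 group as a floor, which covers counting error only, they were at least 128-fold and 272-fold higher in MCF-10A.

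PERP, the most abundant of the 31 genes in both lines, read 300, 276 and 443 FPKM in MCF-10A and 37.9, 40.9 and 41.0 FPKM in SK-BR-3. The mean was 8.51-fold higher in MCF-10A (-3.03 ± 0.17, adjusted p = 1.63e-08). BTG2 (chromosome 1, 203305491 to 203309602, plus strand) read 24.4, 19.6 and 28.1 FPKM against 2.99, 2.32 and 1.83 FPKM, 10.1-fold higher in MCF-10A (-2.89 ± 0.18, adjusted p = 4.49e-08). TP53I3 read 17.9 to 44.1 FPKM against 2.85 to 4.30 FPKM, 7.51-fold higher (-2.51 ± 0.28, adjusted p = 7.64e-06). TNFRSF10B (chromosome 8, 23020133 to 23069179, minus strand) read 40.0 to 44.2 FPKM against 9, 5.36 and 5.86 FPKM, 6.23-fold higher (-2.50 ± 0.15, adjusted p = 2.39e-08). In each of these 4 genes the lowest MCF-10A library lay well above the highest SK-BR-3 library.

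BBC3 ran against the rest. It read 1.32, 1.59 and 1.5 FPKM in MCF-10A and 12.5, 10.4 and 9.39 FPKM in SK-BR-3, so that every SK-BR-3 library lay above every MCF-10A library. The mean was 7.33-fold higher in SK-BR-3 (2.25 ± 0.25, adjusted p = 5.7e-06), and its rank among the 31 genes went from 29 in MCF-10A to 5 in SK-BR-3. Its BH3-only relative PMAIP1 differed in the other direction, at 6.89 to 10.2 FPKM in MCF-10A and 0.655 to 1.31 FPKM in SK-BR-3 (-2.33 ± 0.17, adjusted p = 1.42e-07). BAX, which such proteins help to activate, differed little, at 24.4 to 29.6 FPKM against 17.7 to 18.6 FPKM (-0.50 ± 0.12, adjusted p = 0.00245).

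The other differences in level were moderate. MDM2 was 2.74-fold higher in MCF-10A (-1.25 ± 0.10, adjusted p = 4.61e-07), CCNG1 4.61-fold, GADD45A 4.97-fold, PLK2 6.04-fold, SESN1 4.66-fold, RRM2B 4.53-fold and TP53INP1 4.37-fold. DDB2 was 3.89-fold, ZMAT3 3.11-fold, TRIAP1 2.61-fold, PPM1D 2.30-fold and POLH 2.21-fold higher. Called differences were small for PLK3 (1.53-fold), RPS27L (1.49-fold), BAX (1.45-fold), XPC (1.40-fold) and FBXO22 (1.25-fold), and the groups of PLK3 and XPC overlapped. PLK3 lost its call without the MCF-10A DMSO library of preparation 3 or the SK-BR-3 DMSO library of preparation 2 or 3, and XPC lost its call without any 1 of 9 of the 12 libraries. TIGAR, not tested, averaged 0.596 and 0.450 FPKM.

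**Figure D4:**
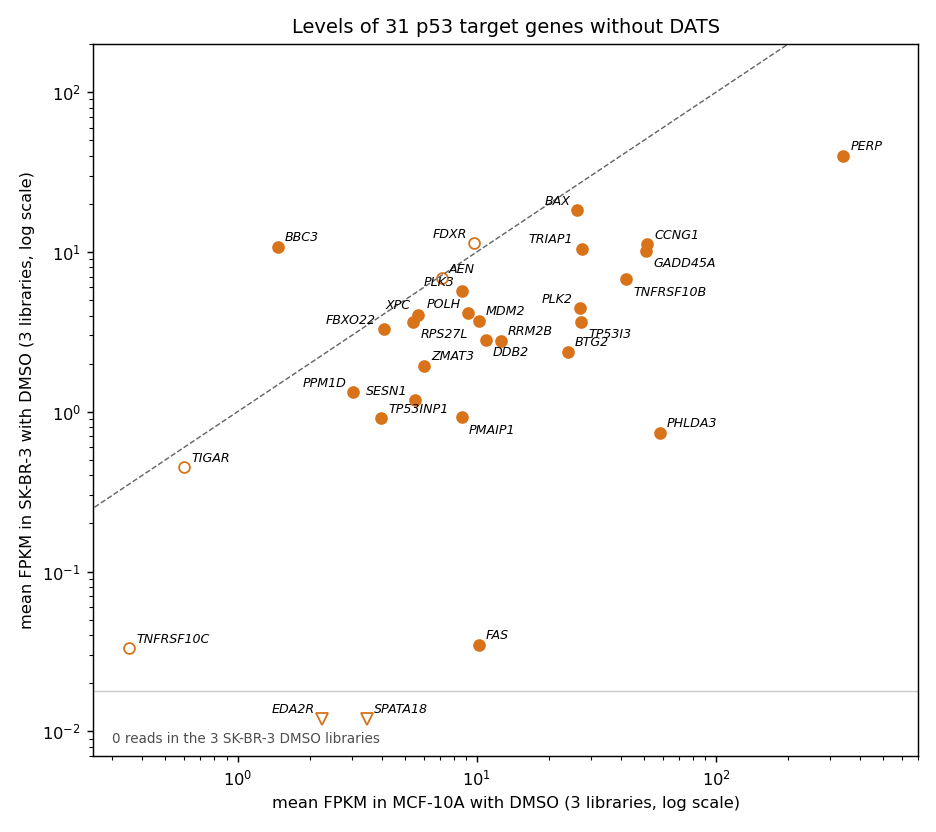
Mean FPKM of the 31 p53 target genes with DMSO in MCF-10A (horizontal) and SK-BR-3 (vertical), 3 libraries each, both on log axes, with filled points for the genes called different by limma, open points for those not called or not tested, and triangles for genes with 0 reads in SK-BR-3 (called lower). Nearly all points lie below the dashed line of equal levels, PHLDA3 and FAS farthest among those with reads, and BBC3 is far above it at 1.47 and 10.8 FPKM.

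TP63, a factor that binds like sites, read 16.8 to 24.8 FPKM in MCF-10A and 0.00819 to 0.0675 FPKM in SK-BR-3. The line with higher levels of 26 of the 29 genes with DMSO thus also held TP63. Its part in these levels was not tested.

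CDKN1A, the cell cycle inhibitor p21 and the best known p53 target, was not among the 31 genes. It read 88.4, 92.5 and 176 FPKM with DMSO and 252, 263 and 264 FPKM with DATS in MCF-10A, where it rose (1.19 ± 0.25, adjusted p = 0.0234). As for GADD45A and TP53I3, the DMSO library of preparation 3 was the high one. The call was lost without any 1 of 5 of the MCF-10A libraries, all but that one. In SK-BR-3 it read 13.4, 15.1 and 11.8 FPKM with DMSO and 25.6, 16.4 and 13.8 FPKM with DATS, with overlapping groups (0.40 ± 0.25, adjusted p = 0.301). The difference of these responses was -0.79 ± 0.36 (adjusted p = 0.235).

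Of 35 further p53 targets, CDKN1A among them, 34 were tested. In MCF-10A 7 rose and 0 fell, with a median change of 0.30, against 4.17% and 2.11% of all tested genes. In SK-BR-3 4 rose and 1 fell, with a median of 0.06, against 11.3% and 6.87%. With the replicate block 15 were called higher and 0 lower in MCF-10A, TOB1 and SERPINB5 among those added, against 10.7% and 5.21%. In SK-BR-3 the block called 4 higher and 4 lower, against 17.1% and 10.3%, with PIDD1, CYFIP2 and TOB1 among the lower. Between the DMSO groups the further targets were more mixed than the 31 genes. In SK-BR-3, 18 of the 34 were lower and 7 higher, against 35.5% and 36.6% of all tested genes, with a median difference of -0.58. Some of the 34, such as SERPINB5 and TGFA, passed the filter through MCF-10A alone. GDF15, a stress cytokine of the TGF-beta family, rose in both lines, from 6.29 ± 0.642 to 24.2 ± 9.94 FPKM in MCF-10A (SD, n = 3; 1.70 ± 0.44, adjusted p = 0.0433) and from 8.98 ± 4.74 to 40.9 ± 24.5 FPKM in SK-BR-3 (2.01 ± 0.44, adjusted p = 0.011). DRAM1, a lysosomal protein that promotes autophagy, also rose in both, by 1.13 ± 0.18 (adjusted p = 0.00913) and 0.62 ± 0.18 (adjusted p = 0.0344). PIDD1, the scaffold of a caspase-2 complex, read 11.6, 10.7 and 12.1 FPKM with DMSO and 5.70, 6.58 and 4.84 FPKM with DATS in SK-BR-3, where it fell (-0.90 ± 0.17, adjusted p = 0.00519), and it changed by -0.18 ± 0.17 in MCF-10A (adjusted p = 0.578).

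Of 22 genes of the p53 family and its regulators, 21 were tested. In MCF-10A 1 rose and 0 fell, against 4.17% and 2.11% of all tested genes. In SK-BR-3 3 rose and 0 fell, against 11.3% and 6.87%. With the replicate block 2 were called higher and 1, the checkpoint kinase gene CHEK2, lower in MCF-10A (-0.25, adjusted p = 0.0453), against 10.7% and 5.21%. In SK-BR-3 the block called 3 higher and 0 lower, against 17.1% and 10.3%. The untested gene was TP73, a relative of p53 named here after its values were seen. In MCF-10A it read 2.7, 2.05 and 0.836 FPKM with DMSO and 0.505, 0.395 and 0.206 FPKM with DATS, groups that did not overlap. TP53BP2, whose product ASPP2 binds p53, rose in both lines, by 0.36 ± 0.08 (adjusted p = 0.0257) and 0.60 ± 0.08 (adjusted p = 0.00113). PPP1R13L, whose product iASPP inhibits p53, rose in SK-BR-3 by 0.36 ± 0.08 (adjusted p = 0.0152) and changed by 0.21 ± 0.08 in MCF-10A (adjusted p = 0.157). MDM4, a partner of MDM2, changed by -0.11 in MCF-10A and -0.29 in SK-BR-3, and PRKDC, the DNA-dependent protein kinase, by -0.49 and 0.00, none of them called.

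Of ATF4, a factor of the integrated stress response that shares some targets with p53, and its targets, 15 genes in all, 13 were tested. In MCF-10A 0 were called, against 4.17% of all tested genes called higher and 2.11% lower. In SK-BR-3 2 rose and 1 fell, against 11.3% and 6.87%. With the replicate block 4 were called higher and 2 lower in MCF-10A, against 10.7% and 5.21%. In SK-BR-3 the block called 3 higher and 2 lower, against 17.1% and 10.3%. SLC7A11, the cystine transporter subunit, rose in SK-BR-3 by 0.68 ± 0.14 (adjusted p = 0.00779) and changed by 0.07 in MCF-10A. CHAC1, which degrades glutathione, changed by 0.61 ± 0.30 in MCF-10A (adjusted p = 0.244, and 0.0445 with the replicate block) and NUPR1, a stress-induced chromatin protein, by 0.58 ± 0.20 (adjusted p = 0.107, and 0.0275 with the block). PHGDH, of serine synthesis, changed in MCF-10A by -0.55 (adjusted p = 0.0588, and 0.016 with the block). SLC3A2, the partner of SLC7A11, changed there by -0.29 (adjusted p = 0.193, and 0.0177 with the block). In SK-BR-3 SLC3A2 rose by 0.48 (adjusted p = 0.0239, and 0.00188 with the block). The difference of its responses was called, at 0.77 (adjusted p = 0.0384). DDIT4, an inhibitor of mTORC1, changed by -0.74 ± 0.29 in SK-BR-3 (adjusted p = 0.0984, and 0.00691 with the block). The mitochondrial ribosomal RNAs MT-RNR1 and MT-RNR2 make up nearly all of the ribosomal share given above. They changed by 0.57 and 0.48 in MCF-10A and by 0.52 and 0.46 in SK-BR-3, not called. With the block MT-RNR1 was called in both lines (adjusted p = 0.0407 and 0.0364). Among the nuclear RNAs, MALAT1 changed by -0.29 and 0.27 and NEAT1 by 0.08 and -0.66, not called. The part of these RNAs in the changes of the p53 targets was not tested.

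The authors' deposited tables of changed genes list 12 of the 31 genes for MCF-10A, 10 of them at an adjusted p under 0.05 and all higher with DATS. These tables hold selected genes only, and the 12 all had an unadjusted DESeq2 p of at most 0.0365. So 10 of 12 is no share of tested genes, and the authors' share over all genes was not worked out here. Beside the 5 genes called here, the authors' deposited table gives a log2 fold change of 0.94 for BBC3 (adjusted p = 0.00551), 0.65 for PLK3 (0.0221), 0.50 for RRM2B (0.000154), 0.44 for TNFRSF10B (0.000566) and 0.35 for BAX (0.0415). For SK-BR-3 the authors' deposited table lists 3 of the 31, with PERP higher at 0.49 (adjusted p = 0.000472), FDXR lower at -0.70 (adjusted p = 0.00258) and PMAIP1 not under the threshold (adjusted p = 0.126).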

How the data were processed

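RNA was sequenced from 12 libraries, 4 groups of 3 that the labels define by line and treatment. Reads were aligned with STAR 2.6.1d to GRCh38 (hg38) and compared with DESeq2, per the submitters' processing notes, while the sources used here name neither the counting program nor its strand setting. The FPKM values of all 58735 genes are the authors' own, per the file headers, and the deposited lengths of 6372 genes equal merged GENCODE 29 exons. The authors also deposited read counts for selected genes, with log2 fold changes and a p-value for each, per the file headers. FPKM times length and effective library size came out as a whole number of reads, within 1e-06, for 704820 of 704820 values, so depth is known.

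The 31 genes and all gene lists were chosen with earlier results of these data known. The fit used log2(FPKM + 1) of the 13194 genes that reached 1 FPKM in 3 or more libraries, with 1 mean per group and a trended variance in limma 3.58.1 (R 4.3.3), and Benjamini-Hochberg adjustment over all tested genes. It was tested on simulated data. "Rose" and "fell" are used of genes called in this fit. Its p-values come from the spread between 3 independently prepared libraries a group, pooled over both lines. Alternatives were edgeR 4.0.16 and DESeq2 1.42.0 on the recovered reads, a pseudocount of 0.1 FPKM, no filter, quantile normalization, a replicate block, each line alone and each library left out. Same-numbered libraries of a line were treated as pairs. The labels give the numbers but do not say that they mark a shared day, and deviations from the group means correlated at 0.21, 0.19 and 0.33 in MCF-10A. For SK-BR-3 the values were 0.39, 0.24 and 0.25. Libraries with different numbers correlated at -0.24 to 0.11 in MCF-10A and at -0.30 to 0.09 in SK-BR-3. In MCF-10A the positive ones were between numbers 1 and 2, at 0.08 and 0.11, so those 2 numbers are the least clearly paired.

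Values in every library are given for genes called in a DATS comparison and for MDM2, BBC3, BAX, FAS and TP53I3, and between the DMSO groups for the 6 largest called differences each way, with CDKN1A and up to 4 genes with the largest change from each further list. A further gene that this rule names is not reported here. The library values of GADD45A, PLK3, TNFRSF10B, RRM2B, PERP, PMAIP1 and CCNG1 in the DATS comparisons were added after their values were seen, as were TP73, CHEK2, PHGDH, SLC3A2, TOB1, SERPINB5 and CYFIP2. Positions are from GENCODE 29. Where exons overlap on the other strand, reads cannot be assigned without the strand setting.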

Additional observations from a re-analysis of the deposited data

Results flagged for a closer look

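The response of FAS to DATS was called different between the lines in the limma test of the difference itself, at -0.41 on the log2(FPKM + 1) scale (SK-BR-3 minus MCF-10A, adjusted p = 0.047). FAS changed by 0.45 in MCF-10A, from a mean of 10.2 to 14.3 FPKM, and by 0.04 in SK-BR-3, from 0.0348 to 0.0674 FPKM. The SK-BR-3 means rest on 7 and 14 reads. The mean with DATS was 1.40 times that with DMSO in MCF-10A and 1.93 times in SK-BR-3, so the sign depends on the scale. The call was lost with a pseudocount of 0.1 FPKM (adjusted p = 0.72), and the sign turned with edgeR (0.39, adjusted p = 0.777) and DESeq2 (0.46, adjusted p = 0.769).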

How the results depend on the processing

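Among all genes, calls with DATS in MCF-10A numbered 829, and 418 with no filter, 1249 with quantile normalization, 2100 with the replicate block, 1456 with DESeq2, 0 with that line alone under the shared filter, 1330 without preparation 3 of MCF-10A, 1278 without preparation 1 of SK-BR-3, and 86 to 1945 with 1 library left out. In SK-BR-3 they numbered 2391, and 3621 with the block, 917 with that line alone, 1195 with that line alone and a filter on its own libraries, and 1253 to 2657 with 1 library left out. For the difference they numbered 566, and 250 with no filter, 1296 with the block, 1094 with DESeq2, 890 without preparation 3 of MCF-10A, and 136 to 1035 with 1 library left out. Of the 29 p53 targets, the count higher in MCF-10A (5) became 3 with a pseudocount of 0.1 FPKM, 10 with the block or DESeq2, 0 with the line alone, 9 without either of those preparations, and 0 to 11 with 1 library left out. In SK-BR-3 the count higher (0) became 1 with that pseudocount, quantile normalization or the line alone with either filter, 3 with the block or DESeq2, 2 without preparation 3 of MCF-10A, and 0 to 2 with 1 library left out, and the count lower (1) became 0 with the line alone and 0 to 3 with 1 library left out. In the difference the count lower (1) became 0 with that pseudocount, no filter or edgeR, 5 with the block, 2 with DESeq2, 4 and 3 without preparation 3 of MCF-10A or preparation 1 of SK-BR-3, and 0 to 2 with 1 library left out. Between the DMSO groups the count higher (1) was 1 to 2 with 1 library left out, and no other count moved by over 1.5 times. The fits without a preparation and the filter on a line's own libraries were chosen after seeing the data. The difference of FAS reversed with edgeR (0.39) and DESeq2 (0.46). The cause of these shifts was not tested. Across lines same-numbered DMSO libraries correlated at 0.10, -0.21 and 0.05, so they share only a number, and with that block 25 of the 29 genes were lower and 1 higher. Few reads limit what can be seen of FAS, EDA2R, SPATA18 and TNFRSF10C in SK-BR-3, and 3 libraries a group limit all calls.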
